A study of Mus musculus with 4 samples.

Results

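Müller glia are the radial support cells of the vertebrate retina. They span its depth, take up the glutamate released by neurons, return glutamine to them, buffer water and ions and take part in the recycling of visual chromophore. Under injury or disease they enter gliosis, in which the intermediate filaments vimentin and GFAP accumulate. The 10 genes described here were named by symbol as genes typical of these cells, and every peak that the authors' annotation gave to one of them in either peak list was taken. They are the filament genes Vim and Gfap, the transcription factor genes Hes1 and Sox9, and the lipid carrier and secreted chaperone genes Apoe and Clu. The others, Slc1a3, Glul, Rlbp1 and Aqp4, are genes of glutamate, retinaldehyde and water handling. They were set against the 26219 genes that have a curated RefSeq transcript and lie on an autosome, X or Y.

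The peaks came from ChIP-seq of transketolase in retina of induced and of noninduced Tet-opsin-VEGFA mice, a model of age-related macular degeneration that overexpresses VEGF. Both groups carried the transgene, and the series text gives 2 retinas for each. The name of the line points to an opsin promoter, which is active in photoreceptors and not in Müller glia. The inducing agent, the length of induction, the age of the animals and whether the retinas were pooled are not given in the sources used here. Each condition had 1 ChIP library called against 1 input library of its own, so the spread between animals is unknown and no p-value compares the conditions. The authors' −log10 p of a peak sets it against background within its own list. Transketolase is best known as an enzyme of sugar metabolism. The tissue was whole retina, so a peak does not say in which cell type the protein lay, and a peak measures no expression.

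The induced list held 30791 peaks with 472950 tags (reads counted within peaks), and the noninduced list held 18267 peaks with 351574 tags. The depth of the libraries outside peaks is unknown. The lowest tag count was 10 in the induced and 14 in the noninduced list. Fold is the authors' enrichment of a peak over a background that differed between the lists, with a median of 8.59 in the induced and 5.86 in the noninduced list. It is used here to place a peak within its own list. All positions are in mm10.

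Peaks were assigned to 7 of the 10 genes in the induced list (70%, Wilson 95% interval 39.7 to 89.2) and to 6 of 10 in the noninduced list (60%, 31.3 to 83.2). These intervals treat the 10 genes as random draws, though the genes were chosen, and they hold no spread between animals. Over all genes tested, 45.4% had an assigned peak in the induced and 34.7% in the noninduced list. With the induced list held to the floor of 14 tags of the noninduced list, 3 members (Vim, Slc1a3 and Glul) and 16.3% of all genes kept an induced peak. The order of the lists turned round at that floor, but it depended on the cutoff. With at least 20 tags, 1 induced and 3 noninduced members were left. Equal numbers of peaks of lowest p gave 6 in each list. A false discovery rate of at most 5% gave 7 induced and 5 noninduced members, and a −log10 p of at least 10 gave 1 and 0. In the full lists, Vim, Glul and Aqp4 had an assigned peak in the induced list alone. Clu and Rlbp1 had one in the noninduced list alone, and Hes1, Sox9, Apoe and Slc1a3 in both. Gfap had none in either list. The members held 13 induced peaks with 237 tags and 11 noninduced peaks with 250 tags. Their median was 12 tags at 9.66-fold in the induced and 19 tags at 5.86-fold in the noninduced list, against medians of 11 tags and 18 tags over all peaks of those lists. In the induced list 11 of the 13 had fewer than 15 tags, close to the floor of 10. In the noninduced list 3 of the 11 stood at the minimum of 14, and 6 held more tags than the list's median.

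**Figure D1:**
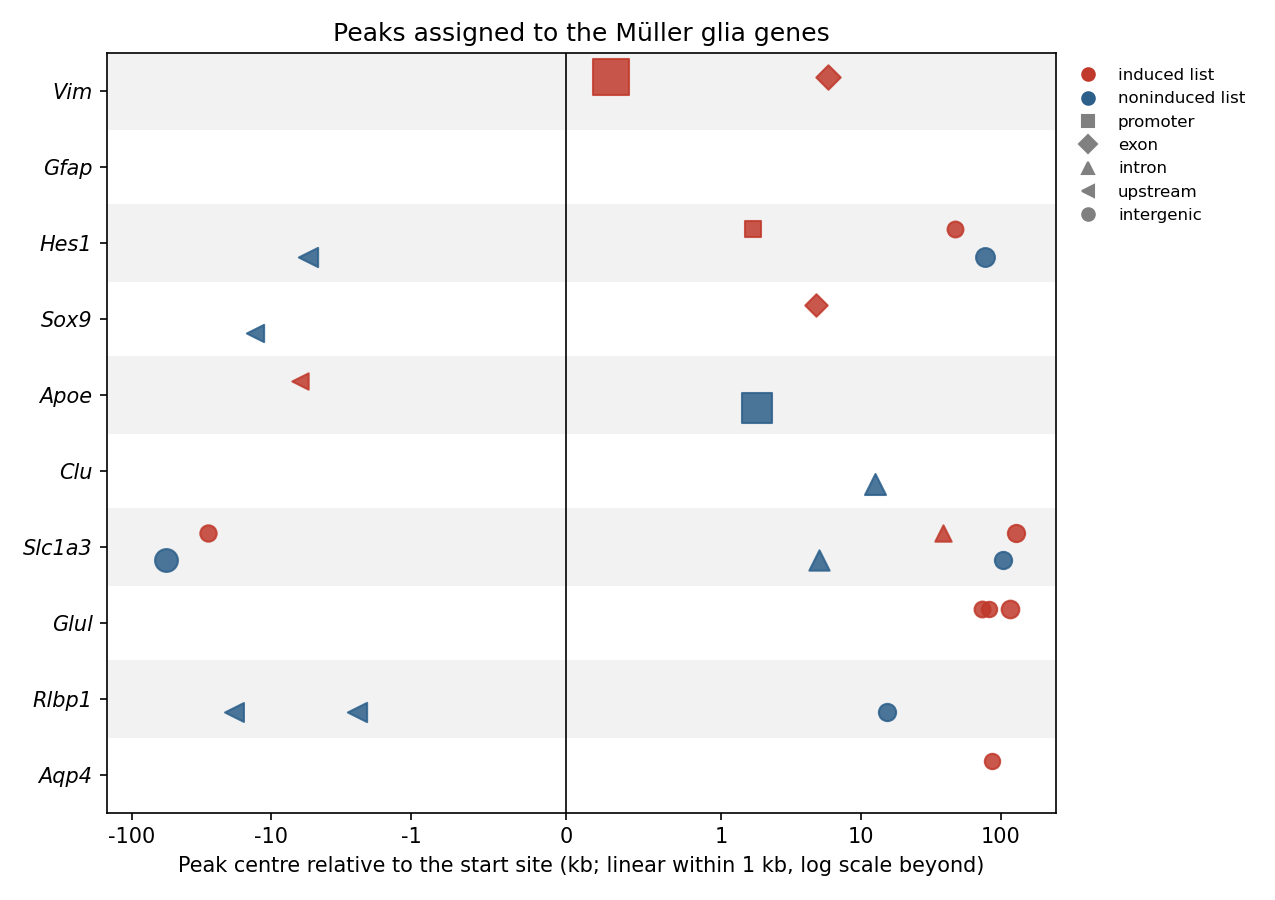
Each symbol is a peak assigned to the gene on its row, placed by the distance of its centre from the start site in kb (negative upstream; linear within 1 kb and logarithmic beyond). Colour gives the list, shape the authors' class and size the tags in the peak. The Vim peak of 93 tags lies at the start site, the Apoe peak of 58 tags lies 1.8 kb downstream of one, and Gfap has no symbol.

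The peak at the Vim start site was the strongest of all member peaks. Vim encodes vimentin, the main intermediate filament of Müller glia. The promoter window of Vim is shown because it is the window of a member that a peak covered. It runs from 250 bases before to 50 bases after the start site on the plus strand (chr2:13574061-13574360, GRCm38, from RefSeq), and capitals mark the 163 bases that lay under the induced peak.
Vim: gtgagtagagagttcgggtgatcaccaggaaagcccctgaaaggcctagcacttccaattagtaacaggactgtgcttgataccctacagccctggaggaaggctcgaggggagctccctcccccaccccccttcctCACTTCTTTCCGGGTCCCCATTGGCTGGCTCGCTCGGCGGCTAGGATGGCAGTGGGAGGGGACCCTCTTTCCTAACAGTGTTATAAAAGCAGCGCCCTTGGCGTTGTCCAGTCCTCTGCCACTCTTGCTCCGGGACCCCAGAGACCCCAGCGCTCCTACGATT
The window held TATAAA at -32 and ATTGG, the reverse complement of CCAAT, at -94, both within the capitals, and CCAAT at -196 outside them. Positions give the leftmost base of each match, with the first base of the transcript counted as 0. Both strands were searched in all 32851 windows of this length in the RefSeq table. The TATA word TATAAA was found in 13.6% of them and the CCAAT word in 37.4%. The GC box GGGCGG stood in 35.7% of windows, the E-box CACGTG in 7.15% and the AP-1 word TGANTCA in 7.81%, and the Vim window held none of those 3. A match describes the letters only. GC content of the Vim window was 59.3%, against a median of 52.7%.

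The table held windows for 6 of the 10 genes, 8 windows in all because Apoe has 3, and the other 7 windows overlapped no peak of either list. Over all windows, 1.44% overlapped an induced and 2.1% a noninduced peak. Hes1, Sox9, Clu and Aqp4 had no window in the table.

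The Vim promoter peak (chromosome 2, 13574198 to 13575005) was 808 bp long and held 93 tags in the induced list (exact Poisson 95% interval 75.1 to 114, counting error only) at 69.13-fold, with a −log10 p of 88.149. It began 113 bp before the start site and ended 694 bp after it, with its centre at 291 bp. Its summit stood 599 bases from the first base of the peak. The summit therefore lay inside the transcript, downstream of the window shown and not under its capitals. The peak ranked 303 by fold and 327 by tags among all induced peaks. Among the 1778 induced peaks of the promoter class it ranked 38 by fold and 36 by tags. Among the 503 induced peaks centred within 500 bp of a start site it ranked 11 by fold, and among the 478 of these that overlapped no annotated pseudogene it ranked 2. Such peaks had a median of 11 tags at 9.66-fold. No noninduced peak was assigned to Vim, and the nearest noninduced peak lay 99.1 kb from the centre of the promoter peak.

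A further induced peak was classed as an exon peak of Vim (chromosome 2, 13579996 to 13580239). It was 244 bp long, the shortest of the induced member peaks, and held 14 tags at 13.65-fold. Its centre lay 5807 bp from the start site, 68.2% of the way along the transcript of 8516 bp. Per kb of peak, the promoter peak held 115 tags and the exon peak 57.4.

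Gfap encodes the filament protein of astrocytes and of Müller glia in gliosis. No peak was assigned to it, but by position 1 induced peak lay inside its span of 9865 bp (chromosome 11, 102890165 to 102890675), with 10 tags at 6.44-fold. The authors' annotation gave that peak to the neighbouring gene Fam187a as intergenic, 5251 bp from the start site of that gene. The count of 10 tags is the lowest in the induced list. No noninduced peak lay inside Gfap.

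Both transcription factor genes had an induced peak within the gene and noninduced peaks outside it. Hes1 encodes a repressor that acts downstream of Notch and maintains progenitor and glial identity. Its induced promoter peak (chromosome 16, 30066877 to 30067198) held 12 tags over 322 bp at 12.89-fold. The promoter class covers centres within 2 kb of a start site, and Hes1 is only 2440 bp long. The centre at 1681 bp therefore lay 68.9% of the way along the transcript. An induced intergenic peak of 11 tags at 8.59-fold was assigned to Hes1 from 47.4 kb downstream. In the noninduced list Hes1 had an upstream peak (30059544 to 30060172) of 19 tags at 7.82-fold, centred 5499 bp before the start site. An intergenic noninduced peak of 18 tags at 6.84-fold lay 77.8 kb downstream. The nearest pair of Hes1 peaks across the lists, the induced promoter peak and the noninduced upstream peak, had centres 7.18 kb apart.

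Sox9 encodes a transcription factor required for the specification of Müller glia. Its induced exon peak (chromosome 11, 112786714 to 112787232) held 11 tags at 9.66-fold over 519 bp. The centre at 4763 bp lay 85.9% of the way along a transcript of 5548 bp. The noninduced peak of Sox9 (112768912 to 112769485) lay upstream, 13011 bp before the start site, with 14 tags at 5.86-fold. Its false discovery rate of 5.87% was the highest of any member peak.

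Promoter or exon peaks were listed at 3 of 10 members in the induced list (Vim, Hes1 and Sox9) and at 1 of 10 in the noninduced list (Apoe), against 10.2% and 7.74% of all genes tested. Promoter peaks alone stood at 2 members in the induced and 1 in the noninduced list, against 7.25% and 6.46%. Exon peaks stood at 2 members in the induced and 0 of 10 in the noninduced list (upper limit 27.8%), against 3.3% and 1.43%. A promoter or exon peak of at least 20-fold was listed at 1 member, Vim, in the induced list, against 1.08% of all genes, and at no member and 0% of genes in the noninduced list. At the common floor of 14 tags the Hes1 and Sox9 peaks were lost, and promoter or exon peaks stood at 1 member in the induced list (Vim, against 3.13% of all genes) and 1 in the noninduced list (Apoe). With 10 genes, each gene moves such a share by 10 percentage points.

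**Figure D2:**
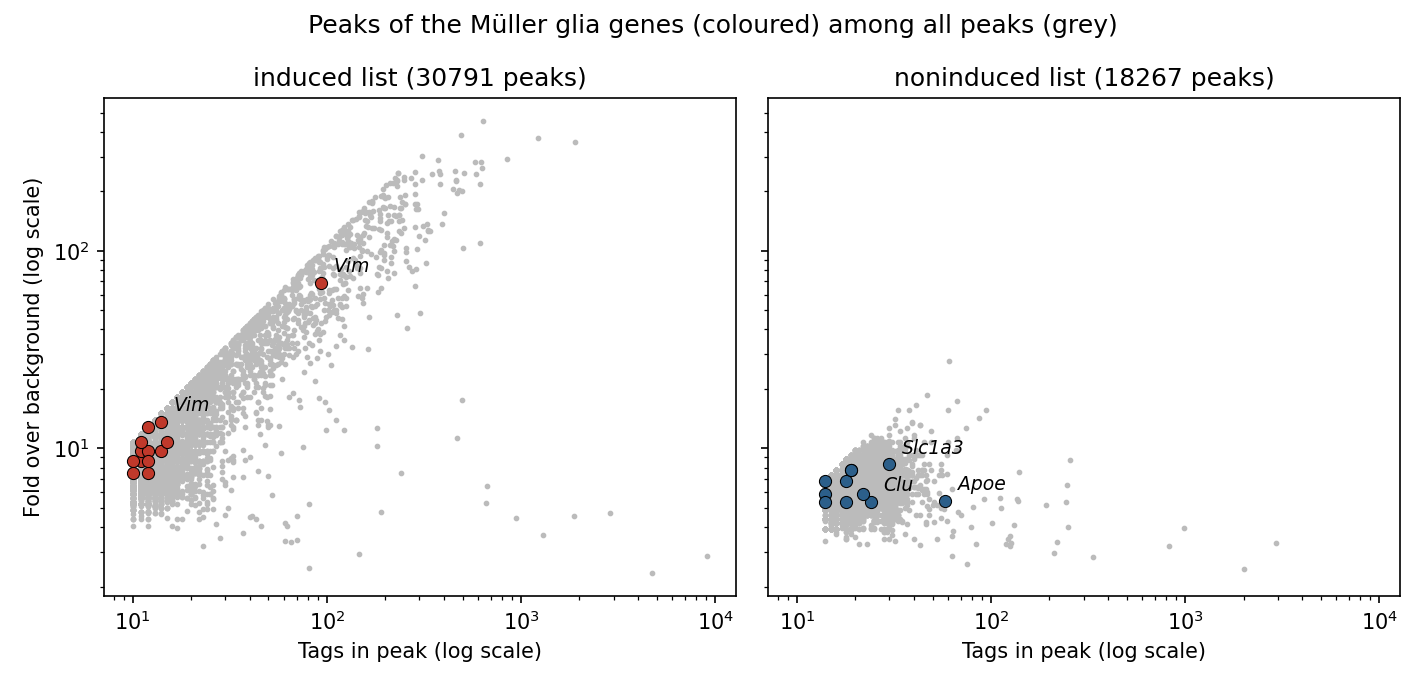
Every grey point is a peak of the induced list (left) or the noninduced list (right), placed by its tags and its fold over background, both on log scales; coloured points are the peaks of the Müller glia genes. The Vim promoter peak stands at 93 tags and 69.13-fold, and the other induced member peaks hold 10 to 15 tags; in the noninduced list Apoe stands at 58 tags but 5.43-fold.

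Apoe and Clu each had a noninduced peak across the 3′ end of the gene. Apoe encodes apolipoprotein E, a lipid carrier that glia secrete. Its noninduced peak (chromosome 7, 19696130 to 19697509) was 1380 bp long, the longest of the member peaks, and held 58 tags (44 to 75). By tags it ranked 48 in the noninduced list, yet its fold of 5.43 was below the list's median. The authors classed it as a promoter peak through a pair of transcripts with internal start sites, whose starts lay 1802 and 1579 bp from its centre. It covered the common end of these transcripts and reached 114 bp beyond it. The window around the more distant of these start sites is shown because the promoter class rests on such starts and not on the most upstream listed one (chr7:19698572-19698871, GRCm38, minus strand, from RefSeq). Capitals mark an overlapping pair of TATAAA matches, on opposite strands, at -100 and -96.
Apoe: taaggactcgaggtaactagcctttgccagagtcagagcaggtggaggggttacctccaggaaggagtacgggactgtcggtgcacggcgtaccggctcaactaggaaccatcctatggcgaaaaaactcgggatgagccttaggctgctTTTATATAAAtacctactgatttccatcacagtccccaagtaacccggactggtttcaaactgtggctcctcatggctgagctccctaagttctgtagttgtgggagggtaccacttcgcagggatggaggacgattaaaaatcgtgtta
In the direction of transcription the peak began 1062 bp downstream of this window, so none of the bases shown lay under it.

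In the induced list Apoe had an upstream peak (19705118 to 19705706) of 12 tags at 9.66-fold. Its centre lay 6223 bp before the start site of the transcripts listed for it. The RefSeq span of Apoe reaches further upstream, to 19701310. By position that peak lay inside the neighbouring gene Tomm40. The Apoe peaks of the lists were centred 8.59 kb apart.

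Clu encodes clusterin, a secreted chaperone also called apolipoprotein J. The noninduced list placed a peak at its end (chromosome 14, 65980632 to 65981625), with 24 tags over 994 bp at 5.38-fold. The authors classed it as intron. Its centre lay 12646 bp from the start site, 96.8% of the way along the transcript, and its last base lay 77 bp past the transcript end. The induced list assigned no peak to Clu. Of the 3 noninduced member peaks classed as promoter, exon or intron, those of Apoe and Clu covered a transcript end and none covered a start. Over all 8184 noninduced peaks of these classes, 1.05% covered an end and 5.84% a start. In the induced list 1 of 5 such member peaks, at Vim, covered a start and none an end, against 2.43% and 1.24% of 12225 peaks.

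Within transcripts, most member peaks lay beyond the midpoint. This held for 4 of 5 induced peaks, the exception being the Vim promoter peak. Of those 4, the Slc1a3 intron peak lay only just beyond the midpoint, at 50.3%. Among the noninduced peaks 2 of 3 lay beyond the midpoint, the exception being an intron peak of Slc1a3. These counts are too small to show a tendency. Over all peaks centred within their transcript, 47.5% of 11409 induced and 42% of 7389 noninduced peaks lay beyond the midpoint. By class, 86.2% of all induced exon peaks lay beyond the midpoint, as did both induced exon peaks of the members. Promoter peaks did so in 7.69% of induced and 3.59% of noninduced cases, and the Hes1 and Apoe peaks were among them. The Hes1 transcript and the shorter Apoe transcripts are little longer than the 2 kb reach of the promoter class.

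**Figure D3:**
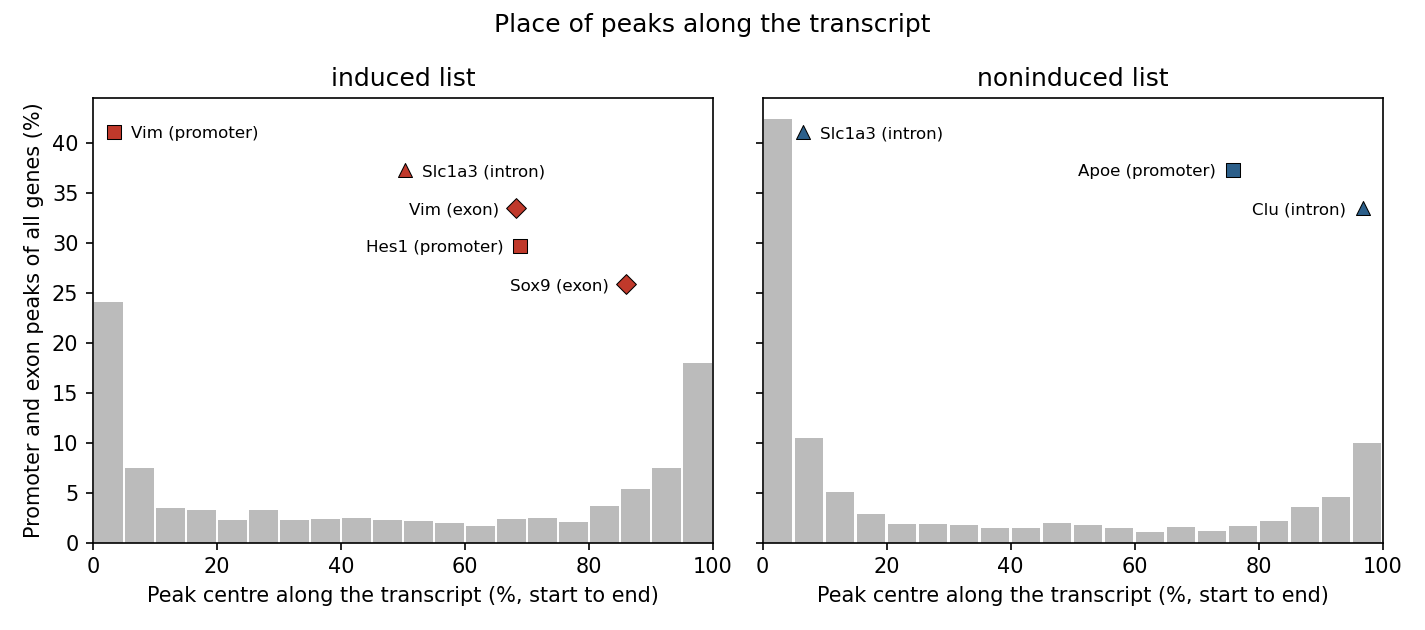
Grey bars give the share (%) of all promoter and exon peaks by the place of their centre along the transcript, from start (0%) to end (100%), in the induced (left) and noninduced list (right). Symbols mark the member peaks of the promoter, exon and intron classes at their place on the horizontal axis, and their height carries no value. The Vim promoter peak lies at 3.42%, the Hes1 promoter peak at 68.9%, the Apoe peak at 75.8% and the Clu peak at 96.8%.

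Slc1a3, Glul, Rlbp1 and Aqp4 had no promoter or exon peak in either list, against 10.2% of all genes in the induced and 7.74% in the noninduced list. With so few genes, a count of none is near those shares. Slc1a3 encodes GLAST, the main glutamate transporter of Müller glia, and with a span of 76684 bp it is the longest of the 10 genes. It had 3 peaks in each list, 1 intron and 2 intergenic, with 38 tags in the induced and 66 in the noninduced list. The induced intron peak (chromosome 15, 8671889 to 8672515) held 12 tags at 7.52-fold, 50.3% of the way along. The noninduced intron peak (8705326 to 8706312) held 22 tags at 5.86-fold and was centred 4989 bp from the start site. The nearest peaks of the other list lay 33.6 kb from the induced and 33.4 kb from the noninduced intron peak. Upstream, an induced peak of 12 tags at 8.59-fold lay 28.4 kb and a noninduced peak of 30 tags at 8.31-fold lay 56.4 kb before the start site, both inside the lncRNA gene Gm31340. The noninduced one had more tags than 96.7% of its list. Downstream, an induced peak of 14 tags at 9.66-fold lay 128 kb and a noninduced peak of 14 tags at 6.84-fold lay 105 kb from the start site, the induced one inside the lncRNA gene Gm46508.

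Glul encodes glutamine synthetase, which converts the glutamate taken up into glutamine. It had 3 induced peaks, all intergenic and downstream, at 73.9, 82.2 and 117 kb from the start site. They held 11, 10 and 15 tags at 10.74-fold, 8.59-fold and 10.74-fold. No peak lay inside Glul in either list, and no noninduced peak was assigned to it.

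Rlbp1 encodes CRALBP, the retinaldehyde-binding protein of Müller glia and pigment epithelium. Its 3 peaks were all in the noninduced list. The upstream peak nearest the start site (chromosome 7, 79389085 to 79389856) held 19 tags at 7.82-fold, 2443 bp before the curated start. It lay inside the RefSeq span of Rlbp1, which includes predicted transcripts, and was also assigned to the upstream region of the neighbouring gene Fanci. A further upstream peak of 18 tags at 5.38-fold, 18.5 kb away, lay inside Fanci. An intergenic peak of 14 tags at 5.38-fold lay 15.4 kb downstream. From these 3 peaks the nearest induced peaks lay 35, 18.9 and 52.8 kb away, centre to centre.

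Aqp4 encodes the water channel of Müller glial endfeet. It had 1 induced peak, intergenic and 87.2 kb downstream on chromosome 18, with 10 tags at 7.52-fold, a count shared with a Glul peak and a fold shared with a Slc1a3 peak as the lowest among the induced member peaks.

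By class, upstream peaks were assigned to 1 member in the induced list (Apoe) and 3 in the noninduced list (Hes1, Sox9 and Rlbp1), against 15.7% and 9.23% of all genes. Intron peaks stood at 1 and 2 members (Slc1a3 in the induced list, Slc1a3 and Clu in the noninduced list), against 17.6% and 13.1%. Intergenic peaks were assigned to 4 members in the induced and 3 in the noninduced list, against 21% and 15.4%. By position and whatever the assigned gene, a peak lay inside 5 of 10 members in the induced and 4 of 10 in the noninduced list, against 30.1% and 22.7% of all genes. Among the 18026 genes with spans between 2440 and 76684 bp, the range of the members, 27.3% and 19.4% held such a peak. Slc1a3 was the gene with a peak inside in both lists.

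**Figure D4:**
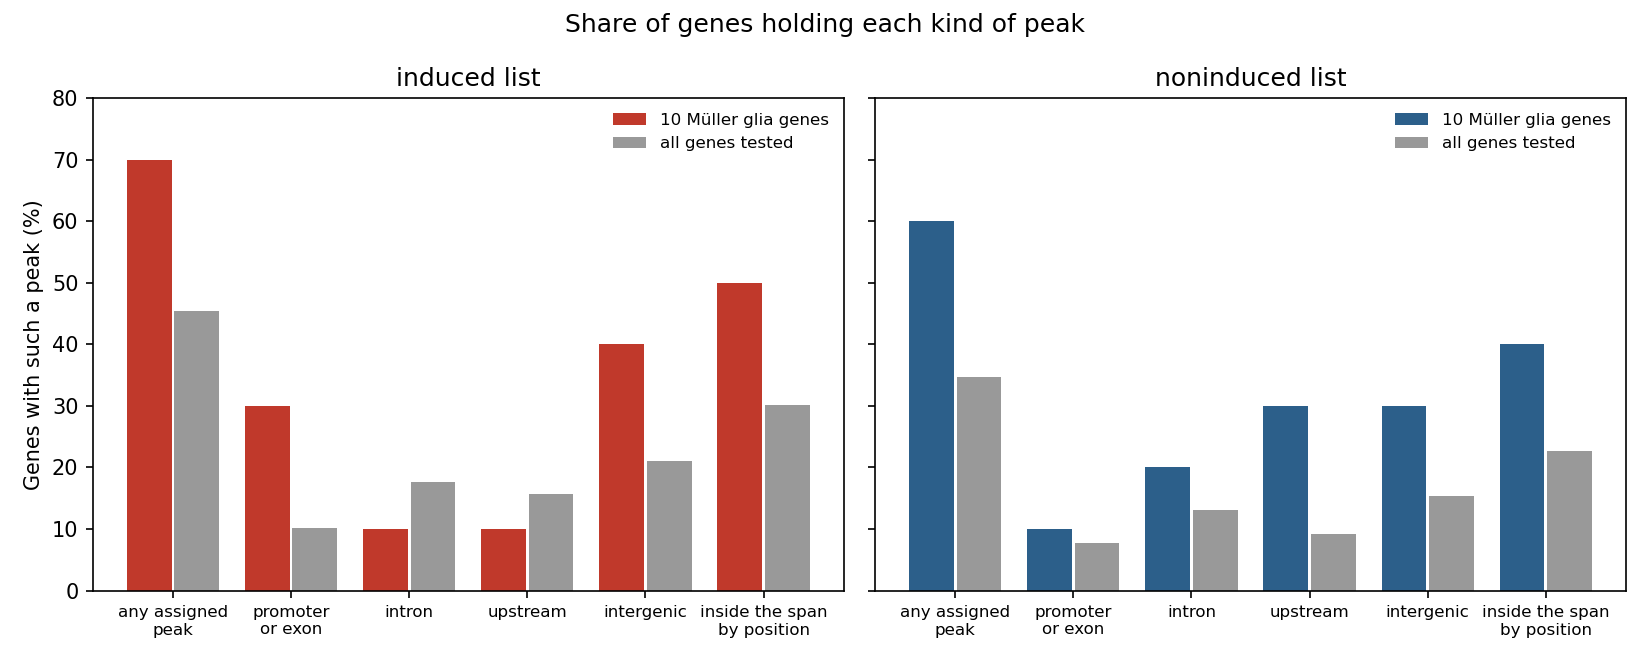
Bars give the share (%) of the 10 Müller glia genes (coloured) and of all 26219 genes tested (grey) that held each kind of peak, in the induced list (left) and the noninduced list (right). Promoter or exon peaks stood at 30% of members against 10.2% of genes in the induced list and at 10% against 7.74% in the noninduced list; each member weighs 10%, and at a common floor of 14 tags the induced share of members is also 10%.

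No position of a member was listed in both conditions. None of the 13 induced member peaks overlapped a noninduced peak, and none of the 11 noninduced member peaks overlapped an induced one. Over all peaks, 1.63% of the induced and 2.73% of the noninduced list overlapped the other. Distances from a member peak to the nearest peak of the other list ran from 7.18 to 204 kb for the induced and from 7.18 to 52.8 kb for the noninduced peaks. No member peak of either list overlapped an annotated pseudogene. The shares for the whole lists were low as well, 4.86% of induced and 1.61% of noninduced peaks. Among the 1073 induced peaks of at least 20-fold the share was 63%. Vim was the member with a peak of that strength. Tags at the position of a peak in the other library are not given in the lists, so a missing peak is not shown to be an absence of binding.

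A wider list of 22 further genes of Müller glia had assigned peaks at 13 genes in the induced and 9 in the noninduced list, against 45.4% and 34.7% of all genes. Promoter or exon peaks stood at 4 of the 22 in the induced list and at 0 of 22 in the noninduced list, against 10.2% and 7.74%. At the common floor of 14 tags, 5 of the 22 had an assigned induced peak and 3 a promoter or exon peak, against 16.3% and 3.13% of all genes. Those 4 were Sox2, Nfix, Nfib and Ccnd1, which encode a transcription factor of progenitors and glia, a pair of nuclear factor I proteins and cyclin D1. The Sox2 promoter peak held 15 tags at 13.53-fold, 658 bp from the start site. Nfix had exon peaks of 14 tags at 15.03-fold and 15 tags at 12.89-fold, 98.9% and 99.7% of the way along the transcript. The one at 99.7% also overlapped the neighbouring gene Lyl1. A promoter peak of Nfix held 14 tags at 11.81-fold. Nfib had exon peaks of 17 tags at 12.89-fold and 10 tags at 6.44-fold, at 97.3% and 99.8%. The Ccnd1 promoter peak held 13 tags at 10.69-fold, 1966 bp from the start site. The strongest peak of this list, of 137 tags at 92.35-fold, was assigned to Nfia from 59986 bp upstream and lay over the pseudogene Gm12696.

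Among 10 genes of gliosis, peaks were assigned to 6 in the induced list (Cebpd, Edn2, Fgf2, Osmr, Socs3 and Stat3) and to 1 in the noninduced list (Osmr), against 45.4% and 34.7% of all genes. At the common floor of 14 tags, 1 gene was left in the induced list (Stat3), against 16.3% of all genes, and 1 in the noninduced list. None was a promoter or exon peak in either list, while 10.2% and 7.74% of all genes had one. With 10 genes, a count of none is near those shares. The strongest, of 109 tags at 64.43-fold in the induced list, was assigned to Stat3 from 19302 bp upstream and lay inside Cavin1, which encodes a protein of caveolae. Stat3 encodes a signal transducer activated in gliosis.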

How the data were processed

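Transketolase ChIP-seq of retina gave 1 ChIP and 1 input library per condition. Reads were aligned with Bowtie2 2.2.7 to mm10 (GRCm38), per the submitters' processing notes, which also list FastQC. The peak caller is not given in the sources used here. Per the file headers, the lists were called separately and each peak carries a whole-number count of tags in the ChIP library, not normalized. The deposited fold is the authors' ratio over a background that is not described. The deposited score, 10 times the −log10 p, was divided by 10. False discovery rates were deposited as a percent. The 3 remaining sheets were empty of values and not used.

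Each peak was counted once, with its longest listed transcript for its place along the gene. Transcripts were matched by accession to a RefSeq table of GRCm38.p6 (99.8% of induced and 99.7% of noninduced transcripts), which gave gene spans and pseudogenes. Classes are the authors' own, by the peak centre: promoter within 2 kb of a start site, upstream from 2 to 20 kb before it. Overlap meant at least 1 bp. Intervals are 95% Wilson for shares and exact Poisson for tags, and cover counting error only. The Wilson intervals, with their upper limits, treat a chosen set of genes as random draws. Alternatives were stricter thresholds, equal list sizes, assignment by position, other promoter widths and other overlaps. Counting was tested on simulated peaks. The work used Python 3.11.15 with scipy 1.17.1, numpy 2.4.6, pandas 2.3.3 and, for plots, matplotlib 3.10.9.

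The members, the wider lists and the settings were chosen with earlier results of these data known. Named genes were all 10 members, the wider Müller glia and gliosis genes with a promoter or exon peak, and genes sharing a peak with a member by position or assignment. The peaks at Nfia and Stat3, the overlap with Lyl1, the gliosis genes with any peak, and the astrocyte, rod and ganglion cell genes were named after their values were seen.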

Additional observations from a re-analysis of the deposited data

How the results depend on the processing

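No paired analysis was possible because there was a single ChIP library on each side, which also left no replicate to omit. When peaks had to reach a −log10 p of 10, 1 member (Vim) with 2 peaks was left in the induced list, 1 of them with a promoter or exon peak, and 0 members with 0 peaks in the noninduced list. With at least 20 tags, 1 member with 1 peak, the Vim promoter peak, was left in the induced list, and 3 members with 4 peaks in the noninduced list (Apoe, Clu and Slc1a3). Assignment by position within 2 kb of the gene gave 6 induced peaks, with Gfap then among the members, and 4 noninduced peaks. Leaving out intergenic peaks left 6 and 7. With a centre within 1 kb of the start site in place of the promoter class, 0 noninduced members had a promoter or exon peak, and within 3 kb 2 had one, since Rlbp1 then joined Apoe. With the induced list held to the noninduced floor of 14 tags, an alternative chosen after seeing the data, 3 induced members with 4 peaks were left, and 1 of them, Vim, had a promoter or exon peak. The stricter thresholds and the higher floor leave fewer peaks by construction. The other 23 values under planned settings and 4 under the added one stayed within 1.5 times. Those 4 were fixed in advance, since the noninduced list was left whole and the count of shared positions was already 0. Equal list sizes also left the noninduced list whole, so its counts could not change there. The count of member positions listed in both conditions was 0 in each of the 3 alternatives run. It could not be otherwise, because the nearest peaks of the other list lay at least 7.18 kb from the member peaks, centre to centre. The floor of tags, 10 in the induced and 14 in the noninduced list, limits which weak member peaks could be listed.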

Other observations

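Markers of other retinal cells were counted the same way, beside 45.4% of all genes with an assigned peak in the induced and 34.7% in the noninduced list, and 10.2% and 7.74% with a promoter or exon peak. Of 5 astrocyte genes, peaks were assigned to 3 in the induced and 1 in the noninduced list, with a promoter peak of 11 tags at 11.81-fold at Aldh1l1 in the induced list. Of 8 rod genes, 5 had an assigned peak in the induced and 5 in the noninduced list. In the induced list the strongest were intron peaks over pseudogenes. They held 56 tags at 52.62-fold and 29 tags at 31.14-fold in Cnga1, and 26 tags at 21.48-fold in Pde6a. In the noninduced list the strongest was an intron peak of Pde6a of 43 tags at 13.2-fold. It lay over the same pseudogene as the induced Pde6a peak and overlapped that peak. The induced list held an exon peak of Nrl, a rod transcription factor gene, of 13 tags at 10.74-fold, 91.6% of the way along the transcript. The noninduced list held a promoter peak of Sag, the gene of rod arrestin, of 21 tags at 5.38-fold. Of 5 ganglion cell genes, 3 had an assigned peak in the induced and 1 in the noninduced list, and none had a promoter or exon peak in either. At the common floor of 14 tags the astrocyte, rod and ganglion cell genes with an induced peak each numbered 2, against 16.3% of all genes, and none of these peaks was a promoter or exon peak. Vim was the gene with a promoter or exon peak of at least 20-fold among the 10 members, the 22 further Müller glia genes, the 10 gliosis genes and these 18 markers. Over all genes tested, 1.08% had such a peak in the induced list.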
